A study of Arabidopsis thaliana with 8 samples.

Results

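The regions described here are 29 windows of 500 bp, each directly downstream of an annotated *Arabidopsis thaliana* transcript end, in which read counts were lower in *cpsf30-1* than in every library of the 3 other lines. They were picked from the measured values, 1 window per locus (that of the lowest-numbered transcript model). A window had to hold at least 10 counts in each of the 6 libraries of *cpsf30-3*, *fip37L* and WT, and both *cpsf30-1* libraries had to lie at or below 0.5 times the lowest of those 6 in CPM (the count divided by the library's total, scaled as counts per 1e+06). Of 31109 loci, 9414 met the count minimum, and 29 of those (0.308%) met the rule. Since the loci *BZIP53* (AT3G62420) and AT3G62422 had identical counts in all 8 libraries, the 29 members are 28 distinct windows. The low level in *cpsf30-1* is therefore what chose the members, and every value given for it, edgeR changes and calls included, is a description and not a test of it.

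The samples were whole seedlings, 9 days old, of ecotype Col-0, and their polyadenylated RNA was sequenced from 2 libraries per line. The *cpsf30-1* line lacks both isoforms of CPSF30, and the *cpsf30-3* line is an insertion mutant that lacks only the long isoform. In *fip37L*, the *fip37-4* mutation is bridged by a *FIP37* copy driven from the *LEC1* promoter, an embryo promoter, so that FIP37 is missing only after embryogenesis. WT plants were the unmutated Col-0. Each mutant is represented by 1 line. The sources do not say whether the 2 libraries of a line came from separate growth batches, so p-values measure only the spread between these libraries.

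An mRNA ends where the nascent transcript is cut and given a poly(A) tail. In *Arabidopsis* the cleavage and polyadenylation complex reads an A-rich signal upstream of the cut, for which AATAAA is the best known form, and CPSF30 is one of its RNA-binding subunits. The long isoform also carries a YTH domain, which binds the N6-methyladenosine (m6A) mark that the FIP37-containing complex places on mRNA. Reads in a window downstream of a gene can come from transcripts that run past its usual end, and equally from any other gene that covers the same bases.

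The AATAAA hexamer was found on the strand of the gene in 9 of the 27 member windows that could be placed on the genome (33.3%, against 35.9% of the windows with the count minimum). One site per window, the one nearest the transcript end, is shown here because the hexamer is the best known form of the signal at which CPSF30 acts. Each site is written 5′ to 3′ on the strand of the gene, with the hexamer in capitals, and comes from the RefSeq TAIR10.1 assembly.
*COL3* (AT2G24790), chr2:10568157-10568186, plus strand: tcgatatgcaaaAATAAAtgagttgagcta
AT3G28900, chr3:10901929-10901958, minus strand: atatatataactAATAAAaatattaaaaat
AT4G14900, chr4:8520694-8520723, minus strand: taaccaagatctAATAAAatgaattttaaa
*BAG5* (AT1G12060), chr1:4077308-4077337, plus strand: tcaaaattgcaaAATAAAtagatttgatcc
*MCM6* (AT5G44635), chr5:18006039-18006068, minus strand: tgtctaagattcAATAAAaacaagaaataa
AT1G53540, chr1:19981378-19981407, plus strand: atgctgcttataAATAAAcatcgccgcgat
*PSAG* (AT1G55670), chr1:20802396-20802425, minus strand: gttacggctgcaAATAAAaaaccattgtaa
*ASY1* (AT1G67370), chr1:25238835-25238864, minus strand: gaatccaaatccAATAAAcgtcgaagatct
AT4G13572, chr4:7889228-7889248, plus strand, cut off by the end of the window: cgacaccatattAATAAAgtc
The hexamer began 24 bases past the transcript end at *COL3*, 57 at AT3G28900, 71 at AT4G14900 and 90 at *BAG5*. It lay farther out at *MCM6* (156 bases), AT1G53540 (191), *PSAG* (257), *ASY1* (265) and AT4G13572 (492). On the opposite strand AATAAA stood in 11 of 27 member windows (40.7%, against 30.8%), and counting ATTAAA as well gave 11 of 27 on the strand of the gene (40.7%, against 51.2%). A match is a run of letters and not a mapped cleavage site. The sites shown lie past the annotated transcript end, whereas the signal for that end would lie upstream of it.

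The libraries held 5862499 to 8411827 counts over 39087 transcript models, and 3 counts, the least taken as detectable, were worth 0.357 to 0.512 CPM. Such floors cover only counting error, because amplification copies carry no molecular mark. The window of the second *CPSF30* model had no count in either *cpsf30-1* library (0), against 4 and 2 counts for *cpsf30-3*, 16 and 17 for *fip37L* and 19 and 14 for WT. The window behind *FIP37* held 39 and 44 counts in *cpsf30-1* libraries, 41 and 36 counts for *cpsf30-3*, 149 and 105 counts for *fip37L* and 56 and 37 counts for WT, so that it was highest in *fip37L*. Each lies past the end of its transcript model, measures no level of that model and was not used to check a label. The study describes a short *CPSF30* transcript polyadenylated within an intron, so a window behind that transcript would lie inside the gene. Which *CPSF30* model is the short one is not given here, and the window of the first model held at most 4 counts in any library. Summed windows of 4 green-tissue genes reached 11624 to 11870 CPM in *cpsf30-1*, 12564 to 13782 in *cpsf30-3*, 11640 to 12189 in *fip37L*, and 14090 to 15719 in WT. The 4 windows did not move together. In *cpsf30-1* against WT, edgeR called 2 higher (background 11.0%) and 0 lower, with 2 lower at an unadjusted p under 0.05. The higher ones were *CAB1* (54.2 and 50.3 CPM against 18.1 and 20.3 CPM) and *RBCS1A* (12.1 and 2.02 CPM against 0.687 and 0.149 CPM). Windows of 7 root genes summed to at most 19.2 CPM in any library and those of 4 seed genes to at most 4.32. These sums read past the gene ends and not the transcripts, their part in the members' levels was not tested, and in whole seedlings fewer cells of a type and less RNA per cell cannot be told apart.

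Across the 29 members the mean *cpsf30-1* level was 2.85% to 44.7% of the WT mean, with a median of 31.4%. It was 6.89% to 47.9% of the *cpsf30-3* mean (median 34.4%) and 2.39% to 41.8% of the *fip37L* mean (median 26.5%). The plot of CPM by library shows the *cpsf30-1* points to the left of all others in every row, which is what the rule demands. In WT the members were ordinary in level, with a median of 14.7 CPM against 14.3 CPM over all windows with the count minimum, and they ranged from 1.58 CPM at AT3G28900 to 908.0 CPM at *BZIP53*. With *cpsf30-3* in place of *cpsf30-1*, the same rule found 2 windows (0.0213%), with *fip37L* 68 (0.721%) and with WT 53 (0.563%). The mirrored rule for rises found 537 windows in *cpsf30-1*, 5 in *cpsf30-3*, 103 in *fip37L* and 9 in WT. The size of the list depends on both *cpsf30-1* libraries being read: without *cpsf30-1* replicate 1 it grew to 67 windows and without replicate 2 to 84. Leaving out a library can only loosen the rule, so all 29 members had to be in both longer lists. Windows just inside the limit were *BZIP53*, whose higher *cpsf30-1* library lay at 0.490 times the lowest of the 6, and AT1G53540 at 0.486. Just outside were AT5G02960 at 0.501, *MK* (mevalonate kinase) at 0.502 and AT3G62400 at 0.504.

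**Figure D1:**
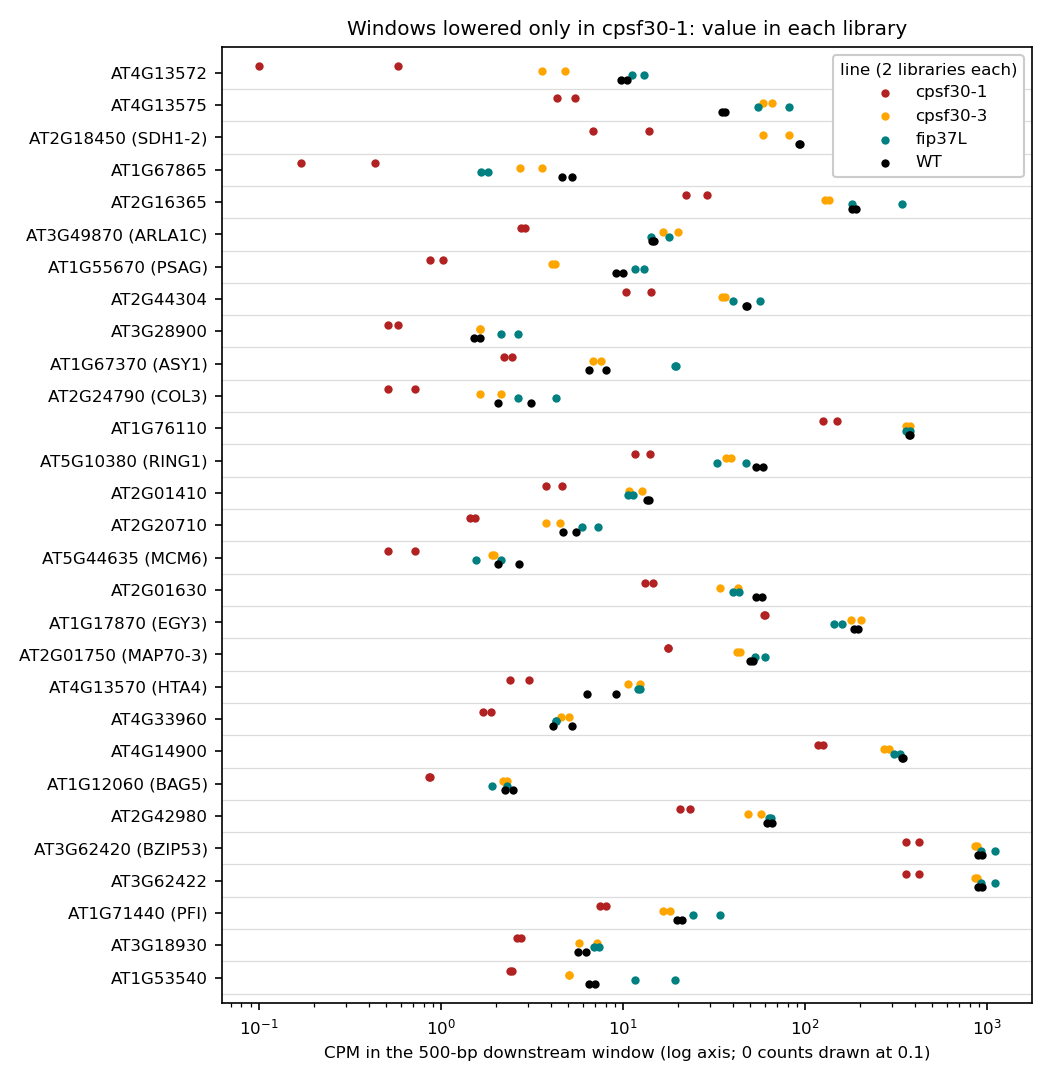
CPM (log axis) in the 29 member windows, 1 row per window, with 1 point per library and 1 colour per line; members are ordered by the ratio of the *cpsf30-1* mean to the lowest of the other 6 libraries, deepest first. The 2 *cpsf30-1* points lie lowest in every row, as the rule requires, while mean levels of the other lines span 1.58 CPM (AT3G28900 in WT) to 1017 CPM (*BZIP53* in *fip37L*).

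The deepest fall and a neighbouring one lay in a group of 3 adjacent loci. *HTA4* (AT4G13570), which encodes a histone H2A, AT4G13572 and AT4G13575, both of unknown function, are successive loci on chromosome 4, and their windows are separated by 2584 and 2571 bases. The AT4G13572 window held 0 and 0.577 CPM in *cpsf30-1*, 4.77 and 3.60 CPM in *cpsf30-3*, 13.0 and 11.2 CPM in *fip37L*, and 9.76 and 10.4 CPM in WT. It stood at 2.85% of WT, on 0 and 4 counts, and *cpsf30-3* was also below both WT libraries. The window of AT4G13575 held 5.46 and 4.32 CPM in *cpsf30-1*, 58.7 and 65.7 CPM in *cpsf30-3*, 81.9 and 55.1 CPM in *fip37L*, and 34.9 and 36.4 CPM in WT. Here both *cpsf30-3* and both *fip37L* libraries were above both WT libraries, so that *cpsf30-1* stood on the other side of WT from the other mutants. *HTA4* had 2.39 and 3.03 CPM in *cpsf30-1*, 10.6 and 12.4 CPM in *cpsf30-3*, 12.4 and 12.01 CPM in *fip37L*, and 6.32 and 9.10 CPM in WT, with the same order of lines. The windows of *HTA4* and AT4G13575 lie partly or wholly inside the RefSeq span of their own gene, whose other models end farther on. That of AT4G13572 holds the whole of AT4G06115, a long noncoding RNA gene of 211 bases on the opposite strand. Windows on either side were not called lower: by edgeR's quasi-likelihood test with Benjamini-Hochberg adjustment, *cpsf30-1* against WT gave a log2 change of 0.67 ± 0.16 (SE) at AT4G13590 (adjusted p = 0.0157, under 2-fold) and -0.07 ± 0.10 at AT4G13580 (adjusted p = 0.653). On the other side AT4G13540 had -0.48 ± 0.16 (adjusted p = 0.0610) and *UNE15* (AT4G13560), the nearest, held at most 2 counts in any library. Among the 27 placed members this was the only group with windows within 5000 bases of each other.

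**Figure D2:**
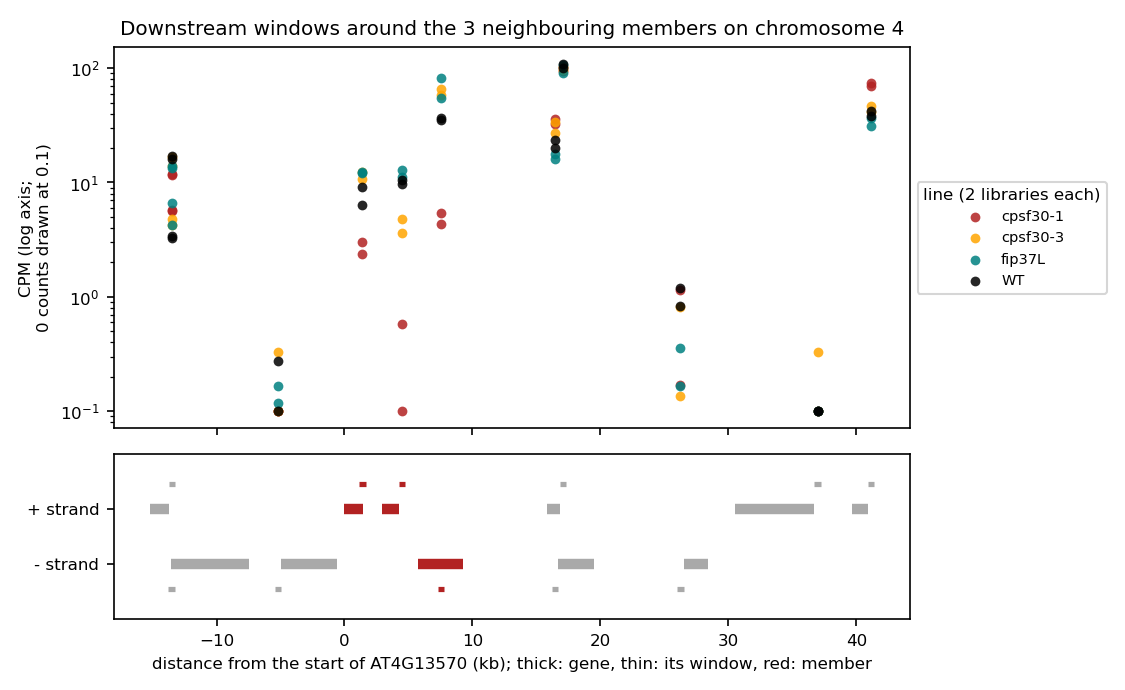
Top: CPM (log axis, 0 counts drawn at 0.1) of downstream windows around *HTA4* (AT4G13570) on chromosome 4 against the distance from the start of that gene in kb, 1 point per library and 1 colour per line. Bottom: genes (thick) and their windows (thin) on each strand, members in red. In the 3 member windows the *cpsf30-1* points lie at or below 0.5 times the lowest other library, as the rule requires, with 0 and 0.577 CPM in the middle one. At AT4G13540, which is no member, they also lie below all others, with a smaller log2 change against WT (-0.48 ± 0.16 SE, edgeR).

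Besides *HTA4* and AT4G13575, the windows free of other annotated genes were those of AT1G67865 and AT3G28900. AT1G67865, of unknown function, had 0.171 and 0.432 CPM in *cpsf30-1*, 2.72 and 3.60 CPM in *cpsf30-3*, 1.66 and 1.81 CPM in *fip37L*, and 5.22 and 4.62 CPM in WT. These are 1 and 3 counts in *cpsf30-1*, and WT was the highest line without overlap. AT3G28900, which encodes a ribosomal protein of the L34e family, had 0.512 and 0.577 CPM in *cpsf30-1*, 1.63 and 1.63 CPM in *cpsf30-3*, 2.14 and 2.63 CPM in *fip37L*, and 1.51 and 1.64 CPM in WT. Its WT level of 11 counts in each library is the lowest among the members, and no more than 4 counts were left in *cpsf30-1*.

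Of the 29 members, 10 (34.5%, against 31.3% of the windows with the count minimum), had a window that overlaps another gene on the same strand. The deepest was *SDH1-2* (AT2G18450), the second gene for the flavoprotein subunit of mitochondrial succinate dehydrogenase, whose window shares 396 bases with *GUT15*, a long noncoding RNA gene that starts inside it. It held 6.82 and 13.8 CPM in *cpsf30-1*, 81.9 and 58.5 CPM in *cpsf30-3*, 161 and 182 CPM in *fip37L*, and 94.1 and 92.0 CPM in WT. The *cpsf30-1* mean was 11.1% of WT, and *fip37L* was above and *cpsf30-3* below both WT libraries. Reads of *SDH1-2* that run on and reads of *GUT15* cannot be told apart in this window.

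Behind *ARLA1C* (AT3G49870), a small GTPase of the ARF-like family, begins its relative *ARLA1B*, which covers 468 bases of the window. The window had 2.73 and 2.88 CPM in *cpsf30-1*, 19.9 and 16.5 CPM in *cpsf30-3*, 17.95 and 14.1 CPM in *fip37L*, and 14.8 and 14.5 CPM in WT. The *cpsf30-1* mean was 19.1% of WT, *fip37L* overlapped WT, and *cpsf30-3* lay above both WT libraries. Since *ARLA1B* and *ARLA1C* are related genes, reads shared between such copies make these counts less certain.

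The 2 members of this kind with the most reads overlap the start of *PETE1* and of *OASA1*. AT1G76110, an HMG-box protein with an ARID DNA-binding domain, has 397 bases of its window in *PETE1*, the gene of plastocyanin 1, which carries electrons to photosystem I. It held 125 and 150 CPM in *cpsf30-1*, 376 and 357 CPM in *cpsf30-3*, 377 and 356 CPM in *fip37L*, and 378 and 372 CPM in WT. The AT4G14900 window, behind a FRIGIDA-like gene and over the first 315 bases of *OASA1* (cytosolic O-acetylserine thiol lyase), held 117 and 126 CPM in *cpsf30-1*, 289 and 271 CPM in *cpsf30-3*, 308 and 332 CPM in *fip37L*, and 343 and 338 CPM in WT. The *cpsf30-1* means were 36.6% of WT behind AT1G76110 and 35.7% behind AT4G14900, and at AT1G76110 the other lines overlapped one another.

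*EGY3* (AT1G17870), a chloroplast relative of the EGY metalloproteases, had 59.9 and 59.5 CPM in *cpsf30-1*, 179 and 204 CPM in *cpsf30-3*, 145 and 159 CPM in *fip37L*, and 196 and 185 CPM in WT, and all 500 bases of its window lie in AT1G17860, a Kunitz-type protease inhibitor gene of the other strand, as well as in a noncoding gene of its own strand. *MAP70-3* (AT2G01750), which encodes a microtubule-associated protein, runs towards *RR14*, a response regulator gene of cytokinin signalling that takes up 471 bases, and held 17.6 and 17.6 CPM in *cpsf30-1*, 42.2 and 43.8 CPM in *cpsf30-3*, 59.8 and 52.8 CPM in *fip37L*, and 49.5 and 51.6 CPM in WT. The remaining members of this class were AT2G20710 (29.2% of WT), AT1G53540, a small heat shock protein (35.9%), *PFI*, a tubulin folding cofactor (38.0%), and AT4G33960 (38.3%). For these the WT means ran from 4.67 CPM at AT4G33960 to 20.4 CPM at *PFI*, so that counting error weighs more.

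The largest class, 13 of 29 (44.8%, against 61.1%), overlaps other genes on the opposite strand only. The study calls its downstream read density strand-specific where it describes another mutant, but the strand setting behind these tables is not given in the sources used here, so reads of the gene and of its antisense neighbour were not told apart in these windows. AT2G16365, an F-box gene, held 22.2 and 28.7 CPM in *cpsf30-1*, 129 and 136 CPM in *cpsf30-3*, 181 and 338 CPM in *fip37L*, and 189 and 180 CPM in WT. Both *cpsf30-1* libraries were far below the rest, at 13.8% of WT, and the 2 *fip37L* libraries differed widely from each other. A transcribed pseudogene, AT2G16367, covers 370 bases of it.

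*PSAG* (AT1G55670) encodes subunit G of photosystem I. Its window had 1.02 and 0.865 CPM in *cpsf30-1*, 4.22 and 4.09 CPM in *cpsf30-3*, 13.0 and 11.7 CPM in *fip37L*, and 10.03 and 9.10 CPM in WT. The 4 lines were separate, in the order *cpsf30-1*, *cpsf30-3*, WT and *fip37L* from low to high, and 208 bases of the window lie in AT1G55660, an F-box gene of the other strand. The window of AT1G55660, on the strand opposite to *PSAG*, shares 329 bases with it and runs on into *PSAG*, and held 1581 ± 0.0537 CPM in *cpsf30-1* and 1565 ± 44.3 CPM in WT (SD, n = 2 each). A window with 289 bases on *PSAG* itself, on its strand, that shares no base with the member window, that of AT1G55675, held 2945 and 3071.8 CPM in *cpsf30-1*, 3057 and 3390 CPM in *cpsf30-3*, 3102 and 3146 CPM in *fip37L*, and 3222 and 3107 CPM in WT. There the log2 change of *cpsf30-1* against WT was -0.07 ± 0.08 (SE), with an adjusted p of 0.586 by edgeR, whereas the window past the end of the gene stood at 9.87% of WT.

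*BZIP53*, a basic leucine zipper factor active in seed maturation and in low-energy responses, had the highest counts. It held 359 and 421 CPM in *cpsf30-1*, 860 and 873 CPM in *cpsf30-3*, 928 and 1106 CPM in *fip37L*, and 930 and 886 CPM in WT. Of its window 495 bases lie in *CP12-2*, a regulator of Calvin cycle enzymes on the other strand, and the window of AT3G62400, which reaches the first 46 bases of *CP12-2* and shares no base with the member window, stood at 148 and 180 CPM in *cpsf30-1*, 358 and 377 CPM in *cpsf30-3*, 390 and 453 CPM in *fip37L*, and 382 and 363 CPM in WT. The window of AT3G62400 missed the list by its ratio of 0.504. That past the end of *CP12-2*, of which 5 bases are shared with the member window, had 85.7 ± 7.61 CPM in *cpsf30-1* and 99.9 ± 6.25 CPM in WT (SD, n = 2 each) and was not called. *RING1* (AT5G10380), an E3 ubiquitin ligase, lies opposite a histone gene, AT5G10390, that covers 467 bases of its window, and held 11.6 and 14.0 CPM in *cpsf30-1*, 39.0 and 36.6 CPM in *cpsf30-3*, 32.6 and 47.5 CPM in *fip37L*, and 58.4 and 53.5 CPM in WT.

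*ASY1* (AT1G67370), a HORMA-domain protein of the meiotic chromosome axis, had 2.22 and 2.45 CPM in *cpsf30-1*, 6.81 and 7.52 CPM in *cpsf30-3*, 19.1 and 19.6 CPM in *fip37L*, and 6.46 and 8.05 CPM in WT. The *fip37L* libraries were far above all others, and *cpsf30-3* and WT overlapped. *COL3* (AT2G24790), a B-box regulator of light responses, had 0.512 and 0.721 CPM in *cpsf30-1*, 1.63 and 2.13 CPM in *cpsf30-3*, 4.28 and 2.63 CPM in *fip37L*, and 2.06 and 3.13 CPM in WT. The window of the second *COL3* model, which shares no base with it, held 378 and 406 CPM in *cpsf30-1*, 729 and 654 CPM in *cpsf30-3*, 731 and 495 CPM in *fip37L*, and 403 and 403 CPM in WT. There *cpsf30-1* lay around WT, and both its libraries were below all 4 of *cpsf30-3* and *fip37L*. It was singled out after its values were seen.

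The rest of the class were AT4G13572, described above with *HTA4*, AT2G01410 (30.6% of WT), AT2G01630, a glycosyl hydrolase opposite *MEE11* (24.9%), AT2G42980, an aspartyl protease (34.6%), *MCM6*, a subunit of the replicative helicase (26.0%), *BAG5*, a co-chaperone (36.5%), and AT3G18930, a RING protein opposite *ETP2* (44.7%, the smallest difference). *MCM6* and *BAG5* rested on 15 to 18 counts per WT library and 3 to 6 per *cpsf30-1* library. AT2G44304 and AT3G62422 could not be placed, and AT2G44304 held 10.4 and 14.1 CPM in *cpsf30-1*, 36.2 and 35.0 CPM in *cpsf30-3*, 40.2 and 56.1 CPM in *fip37L*, and 47.8 and 47.4 CPM in WT.

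In edgeR's fit of the 4 lines over 12583 windows, calls required both a p under 0.05 after Benjamini-Hochberg adjustment and a difference of 2-fold or more. All 29 members were called lower in *cpsf30-1* against WT (background 2.57% of the windows tested), 27 of 29 against *cpsf30-3* (1.45%) and 29 of 29 against *fip37L* (7.70%), and 0 were called higher in these contrasts (backgrounds 11.0%, 6.19% and 10.2%). These contrasts chose the members, so the counts are no result about them. *COL3* and AT1G53540 were the ones not called against *cpsf30-3*. The members made up 8.98% of the 323 windows called lower in *cpsf30-1* against WT. Their log2 changes ran from -4.93 at AT4G13572 to -1.15 at AT3G18930, with a median of -1.67, against -0.03 over all windows tested. With DESeq2, 23 of the 29 were called, and the other 6, AT3G28900, *BAG5*, *COL3*, *MCM6*, AT3G18930 and AT4G33960, had WT means of 1.58 to 5.95 CPM.

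The rule set only a lower limit on *cpsf30-3* and *fip37L*, so their differences from WT vary within the list. Background windows did not have to meet that limit. Shares of members beside the background are therefore partly set by the rule and are a description. In *cpsf30-3* the window behind *PSAG* was lower than in WT, with a log2 change of -1.15 ± 0.21 (SE, edgeR adjusted p = 0.0306), which makes 1 of 29 members called lower (background 0.159%) and 0 called higher (background 1.33%). At an unadjusted p under 0.05, 2 were higher and 5 lower in edgeR. DESeq2 called 0 in either direction and had 5 at an unadjusted p under 0.05. The call at *PSAG* was lost with DESeq2 (adjusted p = 0.204) and in edgeR without WT replicate 1 (0.249) or 2 (0.170), without *cpsf30-3* replicate 1 (0.149) or 2 (0.141), and without *cpsf30-1* replicate 1 (0.0626) or 2 (0.0593). Both *cpsf30-3* libraries were below both WT libraries in 18 of 29 members (background 35.7%) and above both in 3 (background 21.4%). The median log2 change of the members was -0.18, against -0.00 over all windows tested. The *cpsf30-3* mean was the lowest of the 3 other lines in 17 of 29 members, against 31.0% of the windows with the count minimum.

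In *fip37L*, 3 members were higher than in WT (background 7.10%) and 1 was lower (background 2.85%) by the same test. *ASY1* was higher by a log2 change of 1.52 ± 0.18 (SE, edgeR adjusted p = 0.000925), and its call held in every alternative run. AT1G53540 was higher by 1.28 ± 0.25 (adjusted p = 0.00738), with 11.7 and 19.2 CPM in *fip37L* against 6.46 and 7.01 CPM in WT. Its window holds the snoRNA gene AT1G07897 and parts of the snoRNA gene AT1G07903 and of AT1G53542, all on its strand. The window past AT1G53542 was also higher in *fip37L* (1.60 ± 0.35, edgeR adjusted p = 0.0120). All 500 bases of the *ASY1* window lie in AT1G67365, a long noncoding RNA gene of the other strand. AT4G13575 was higher by 1.05 ± 0.18 (adjusted p = 0.00414), and AT1G67865 was lower by -1.40 ± 0.31 (adjusted p = 0.0125). The call at AT1G53540 was lost without WT replicate 1 (adjusted p = 0.0677) or 2 (0.0520) and fell under 2-fold without *fip37L* replicate 2 (log2 change 0.90), whereas that at AT4G13575 was lost without WT replicate 1 (0.0557) and fell under 2-fold without *fip37L* replicate 1 (log2 change 0.72) and with library size scaling (log2 change 0.93). That at AT1G67865 was lost with DESeq2 (0.188) and without WT replicate 1 (0.107) or 2 (0.0642). Both *fip37L* libraries were above both WT libraries in 12 of 29 members (background 22.9%) and below both in 6 (background 40.4%), and the median log2 change was 0.26 against 0.03 over all windows tested. The contrasts with *cpsf30-3* and *fip37L* share the WT libraries. Windows low in *fip37L* were less able to meet the rule but stay in the background, so these shares and medians are no test of *fip37L*. The plot of log2 changes shows the spread of both lines around 0 beside the one-sided *cpsf30-1* panel.

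**Figure D3:**
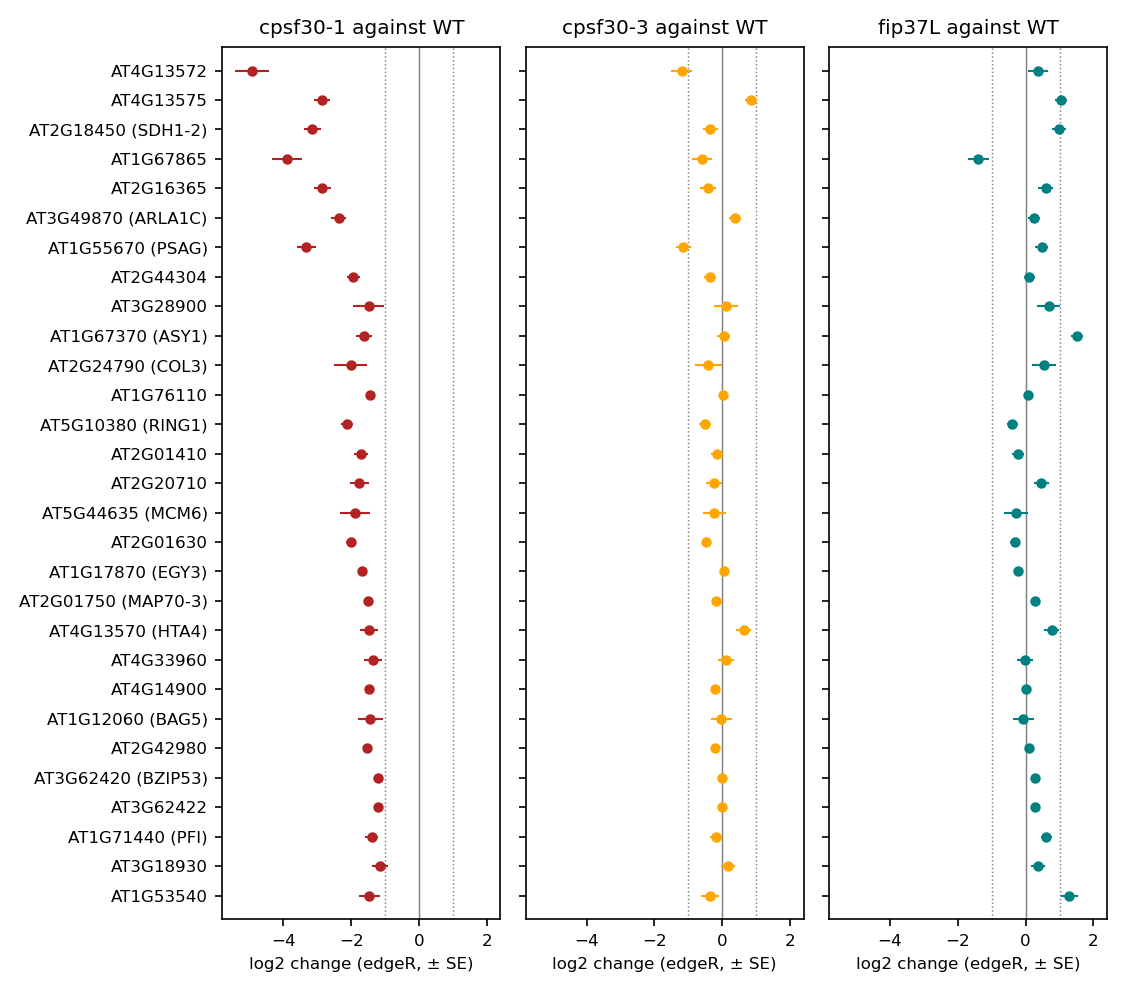
Log2 change against WT (edgeR, ± SE) in the 29 member windows for *cpsf30-1* (left), *cpsf30-3* (middle) and *fip37L* (right); the solid line marks no change and the dotted lines a 2-fold change. *cpsf30-1* runs from -4.93 to -1.15 because the rule chose it so, *cpsf30-3* from -1.20 to 0.86 and *fip37L* from -1.40 to 1.52.

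Windows of other loci that lie on a member gene, or on a gene that a member window overlaps, were not used by the rule. Many of those on member genes belong to the strand opposite to that gene. Among them are AT1G17860 on *EGY3*, AT2G01400 on AT2G01410, and the windows on AT2G16365, AT3G28900 and AT4G14900. The strand setting is not given, and if counting used the strand, such windows may not read the member gene. There were 22 of them that share no base with a member window, and 19 were tested, with 46 to 500 bases on the gene. In *cpsf30-1* against WT, 3 were higher (background 11.0%) and 1 was lower (background 2.57%), with a median log2 change of -0.25. The one lower was that of AT3G62400, which has the 46 bases on *CP12-2* (-1.17 ± 0.11 SE, edgeR adjusted p = 0.000197). On the member genes themselves, 13 such windows were tested, of which edgeR called 2 higher and 0 lower, with 3 lower at an unadjusted p under 0.05, and DESeq2 likewise called 0 lower. The closest to a call was that of AT2G01400 on AT2G01410, at 27.5 and 29.3 CPM in *cpsf30-1* against 50.3 and 48.8 CPM in WT, a log2 change of -0.80 ± 0.11 (edgeR adjusted p = 0.00110, under 2-fold). Both of the higher ones lie on *EGY3*: AT1G17860 had 35.7 and 29.4 CPM in *cpsf30-1* against 14.6 and 13.0 CPM in WT (log2 change 1.24 ± 0.27, edgeR adjusted p = 0.0112), and AT1G17880 had 27.0 and 24.2 CPM against 9.76 and 12.8 CPM (1.19 ± 0.21, adjusted p = 0.00407). The windows on AT2G16365 (-0.16 ± 0.14), AT3G28900 (-0.20 ± 0.10) and AT4G14900 (-0.39 ± 0.10) were not called, with adjusted p of 0.468, 0.171 and 0.0201 in edgeR, although the windows behind these genes stood at 13.8%, 34.5% and 35.7% of WT.

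The genes that the member windows overlap also have windows of their own farther downstream. These were picked out after values had been seen. Some were already counted among the windows of other loci above, including those of *PETE1* and AT1G17860, both called higher there, and of AT2G01400 and *MEE11*. The counts of calls therefore overlap. Of 18, 15 were tested, 3 were higher in *cpsf30-1* than in WT (background 11.0%), 1 was lower (background 2.57%) and 11 were not called. The own window of *PETE1*, of which 104 bases still lie on the gene, held 28 and 35 counts in *cpsf30-1* libraries. It had 22 and 22 counts for *cpsf30-3*, 26 and 7 for *fip37L* and 8 and 9 for WT. The log2 change against WT was 2.0 ± 0.42 (SE, edgeR adjusted p = 0.00964), and the member window on the gene, chosen as low, had -1.44 ± 0.10. AT2G42975 had 33 and 47 counts downstream of it in *cpsf30-1* against 13 and 8 in WT (2.05 ± 0.46, adjusted p = 0.0122), although 68 bases of that window are shared with the member window. From there the window of AT2G42975 runs on into the member gene itself, AT2G42980. The third was AT1G17860, given above. *CP12-2* (-0.21 ± 0.12), *OASA1* (-0.31 ± 0.12) and *ARLA1B* (-0.38 ± 0.19) were not called, with edgeR adjusted p of 0.219, 0.0873 and 0.194. The one lower was AT1G53542 (-2.64 ± 0.61, adjusted p = 0.0148), on 2 and 1 counts in *cpsf30-1* against 13 and 9 in WT. The call at *PETE1* was lost without WT replicate 1 (adjusted p = 0.0848) or 2 (0.0627) and without *cpsf30-1* replicate 2 (0.0604), that at AT1G17860 without WT replicate 1 (0.0681) or 2 (0.0949) and without *cpsf30-1* replicate 1 (0.0795), that at AT1G17880 without WT replicate 1 (0.0550), and that at AT1G53542 with DESeq2 (0.112), without WT replicate 1 (0.0949) and without *cpsf30-1* replicate 1 (0.0534) or 2 (0.114).

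**Figure D4:**
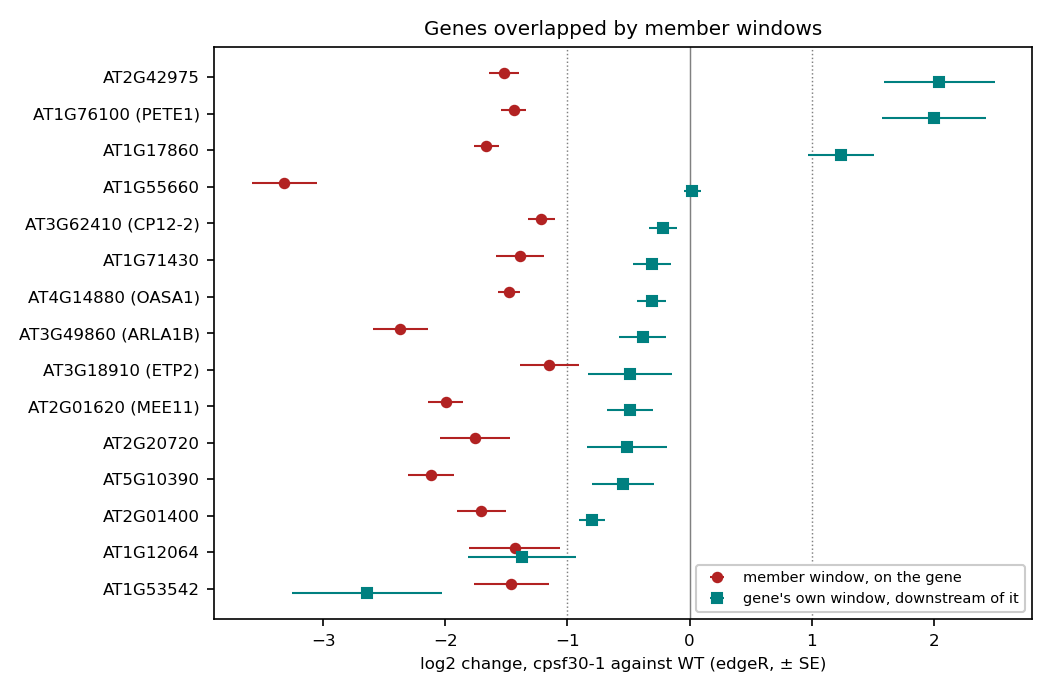
Log2 change of *cpsf30-1* against WT (edgeR, ± SE) for 15 genes that member windows overlap: red circles give the member window, which lies on the gene, and teal squares the gene's own 500-bp window downstream of it. Some pairs share bases (329 at AT1G55660), and the own window of *PETE1* has 104 bases on the gene. The own windows of AT1G17860, AT1G71430, AT2G01400, *MEE11* and AT2G20720 lie with all 500 bases on the member gene, and that of AT2G42975 runs into it. The teal squares run from -2.64 at AT1G53542 to 2.05 at AT2G42975, and 3 of them were called higher.

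For position and sequence, the members' shares are given beside those of the windows with the count minimum, with no test. Chromosome 2 held 9 of 29 members (31.0%, against 14.9%) and chromosome 5 held 2 (6.90%, against 22.8%). The window reached the end of a gene on the opposite strand in 11 of 27 (40.7%, against 27.2%) and the start of a gene on the same strand in 8 of 27 (29.6%, against 28.4%). AATAAA stood in the last 50 bases of the transcript in 4 of 27 (14.8%, against 9.81%). The median GC content was 37.0% against 38.0%, and the median share of the window covered by other genes was 79.2% against 95.8%. Loci with more than 1 annotated 3′ end made up 6 of 27 (22.2%, against 18.6%).

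Lists from processes in which CPSF30 has been studied in *Arabidopsis* were also looked up. Those of 14 oxidative stress enzymes, 15 genes of salicylic acid defence, 16 of nitrate transport and assimilation and 19 cleavage and polyadenylation factors held 0 members and 0 genes overlapped by a member window. Only 30 windows of these lists had the count minimum, and at the share of 0.308% over all such windows a count of 0 says nothing about the members. In *cpsf30-1* against WT, edgeR called 4 of the 10 tested windows of oxidative stress genes higher (background 11.0%), among them those behind *APX1* (cytosolic ascorbate peroxidase), with 4.95 and 4.04 CPM in *cpsf30-1* against 0.550 and 0.597 CPM in WT, and *CAT2* (catalase), with 44.2 and 47.0 CPM against 17.5 and 17.5 CPM. Windows behind *NIA1* (nitrate reductase) and *GS2* (plastid glutamine synthetase) were the 2 of 6 called higher for nitrate genes, and that of AT5G60940 the 1 of 13 for polyadenylation factors, with 5.97 and 6.05 CPM against 0.824 and 1.04 CPM. For salicylic acid genes 0 of 6 were called higher. Over the 35 tested windows of the 4 lists, edgeR and DESeq2 called 0 lower (background 2.57% in edgeR), and 5 were lower at an unadjusted p under 0.05 in edgeR.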

How the data were processed

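Per the labels and the study's methods, the authors sequenced polyadenylated RNA from a stranded kit, removed organellar and ribosomal reads with Bowtie2 2.3.4, mapped the rest to TAIR10 with TopHat2 2.0.7 and used BEDTools to count reads over the 500 bp past each transcript end. Cufflinks 2.2.1 and Cuffdiff are also named in the submitters' processing notes. The deposited values are raw counts per transcript model with no normalization, 1 table per library, and reads on gene bodies were not used here.

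CPM is the count divided by the column total of all transcript models. Windows were placed with the RefSeq annotation of TAIR10.1 (38527 of 39087 models), which can differ from the authors' gene models: the second *MAP70-3* model has counts identical to the first although its reference window lies elsewhere. edgeR 4.0.16 under R 4.3.3 supplied the main test, its quasi-likelihood F-test on the counts (two-sided, TMM, low-count filter by group, 1 fit of 8 libraries, 4 residual degrees of freedom), with DESeq2 1.42.0 as an alternative, and scripts were tested on simulated data. Tables and figures were made with Python 3.11.15, pandas 2.3.3 and matplotlib 3.10.9. The members, gene lists and tests were chosen with earlier results of these data known. Named windows are the 15 deepest members, the 5 highest in level, the 5 deepest of each overlap class, those called in *fip37L* or *cpsf30-3*, those within 5000 bases of another, and the 3 nearest the threshold on either side. Alternatives were other thresholds, count minimums, scalings, transcript models and window classes, DESeq2, no low-count filter, a fit of 2 groups, a replicate block, the adjusted p alone, and leaving out each library.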

Additional observations from a re-analysis of the deposited data

How the results depend on the processing

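With 2 libraries per line, depth and the spread of low counts limit these results: 9 members had a mean WT count under 50. The number of windows lowered only in *cpsf30-1* was 29, and it became 5 at a threshold of 0.25, 138 at 0.67, 118 with a minimum of 1 count, 17 without windows that overlap a gene on the same strand, 4 with windows free of genes, and 29 to 84 when 1 library was left out. It stayed within 1.5 times under the other alternatives, among them a minimum of 20 counts (24), the highest-numbered model (26), TMM scaling (37) and, chosen after seeing the data, identical loci counted once (28).

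For *cpsf30-1* against WT, 323 windows were lower with edgeR, 162 with DESeq2, 994 by the adjusted p alone and 170 to 394 with 1 library left out, and 1389 were higher, 817 with DESeq2 and 693 to 1628 with 1 library left out. Lower windows against *cpsf30-3* numbered 183, with 389 without the filter, 569 by the adjusted p alone and 59 to 296 with 1 library left out. Against *fip37L* they numbered 969, with 561 by DESeq2, 2033 by the adjusted p alone and 616 to 1018 with 1 library left out. For *fip37L* against WT, 894 were higher (DESeq2 534, adjusted p alone 1428, 1 library left out 328 to 1001) and 358 lower (203, 1182, and 179 to 392). For *cpsf30-3* against WT, 167 were higher (no filter 570, fit of 2 groups 379, 1 library left out 8 to 394) and 20 lower (no filter 138, fit of 2 groups 75, adjusted p alone 39, 1 library left out 3 to 78). The cause of these shifts was not tested.

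Among members, calls with 1 library left out ran from 22 to 28 of 29 lower against WT, 20 to 28 against *cpsf30-3* and 27 to 29 against *fip37L*. In *fip37L* against WT, 3 members were higher, 6 by the adjusted p alone and 1 to 4 with 1 library left out, and 1 was lower, 0 with DESeq2 and 0 to 1 with 1 library left out. In *cpsf30-3* against WT, 0 were higher, 1 by the adjusted p alone, and 1 was lower, 0 with DESeq2, 2 without the filter, 2 in a fit of 2 groups and 0 to 2 with 1 library left out. Where 1 library is left out, the lone library of a line is assumed to vary like the others. Of the windows of other loci on the same genes, 3 were higher in *cpsf30-1* and 1 where no further gene is overlapped, and 1 was lower and 2 with the own windows of overlapped genes, an alternative chosen after seeing the data. No result changed direction under the alternatives run, but the rule had largely set the direction of the members in the *cpsf30-1* contrasts beforehand.

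Deviations of libraries with the same replicate number correlated at -0.089 to 0.044 over 12583 windows. Values near 0 show little shared shift, but they cannot tell whether libraries of 1 number were grown or prepared together. With the number as a replicate block, *cpsf30-1* against WT had 305 windows lower and 1335 higher, and 28, 25 and 29 members were lower against WT, *cpsf30-3* and *fip37L*.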
